A study of Mus musculus with 4 samples.

Results

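Matrix metalloproteinases, the plasminogen activator of the urokinase type and their inhibitors control how cells cut and remodel the extracellular matrix. The 9 genes described here are the metalloproteinase genes Mmp2, Mmp11, Mmp14 and Mmp15, the tissue inhibitor genes Timp1, Timp2 and Timp3, the urokinase gene Plau and the urokinase receptor gene Plaur. They were chosen by name as 1 functional family, with earlier results of these data known. All 9 were found among 27542 rows of genes and transcribed loci. Each occupied 1 row, and each row was among the 15477 that the authors tested.

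The cells were TBV2, a mouse embryonic stem (ES) cell line, grown in serum with the cytokine LIF. The series description also names feeder cells and high density. The control, labelled NT, was 1 library. The knockdown (KD) group was 3 clones in which T-UCstem1, a long noncoding RNA labelled uc.170, was lowered. The authors gave 1 value per gene for the condition named treated, which was taken as these clones combined. How the clones were combined is not given in the sources used. Values are FPKM, the fragments counted per kilobase of transcript relative to all mapped fragments of a library, so levels of different genes can be set side by side. Where a pair of levels is given for a gene, the control stands first. How far T-UCstem1 itself was reduced was not analysed here. There is no spread between cultures for any value below, and clones cannot be compared with each other.

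Matrix metalloproteinases (MMPs) are zinc enzymes made as inactive precursors. Mmp14 and Mmp15 encode membrane-anchored forms, while Mmp2 encodes a secreted gelatinase that cuts denatured and basement membrane collagen. Tissue inhibitors of metalloproteinases (TIMPs) block the active site of MMPs, and TIMP2 also takes part with MMP14 in the activation of the MMP2 precursor at the cell surface. Urokinase converts plasminogen to plasmin, a broad serine protease, and its receptor holds it at the membrane. In the early embryo these systems are best known from trophoblast and parietal endoderm, which cross or lay down matrix.

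In the KD cells the inhibitor and plasminogen activator genes were higher and the most abundant metalloproteinase gene was lower. Timp2 rose 4.55-fold and Mmp11 fell to 0.500 of its control level, and these were the 2 of 9 genes that passed the authors' threshold. Timp1, Timp3, Plau and Plaur were each more than 2.4-fold as high in the KD without passing it. Mmp2, Mmp14 and Mmp15 differed by less than 1.6-fold.

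Of the 9 genes 1 was called higher, 1 was called lower and 7 were not called. The authors called 0.963% of all tested rows higher and 0.187% lower, at a q of at most 0.05. The FPKM was higher in the KD for 8 of the 9, against 50.9% of all tested rows. At a deposited p under 0.05 without adjustment, 4 members were higher (6.10% of all tested rows) and 1 was lower (2.78%). The log2 fold, taken as log2((KD FPKM + 1)/(control FPKM + 1)), was at least 1 in 5 members and in 2.72% of all tested rows. The median over the 9 genes was 1.03, and over all tested rows it was 0.0069. With a pseudocount of 5 the members' median was 0.41, and without Timp1 and Timp3, whose loci hold other tested genes, it was 0.40. Because the genes were chosen with earlier results of these data known, these counts are descriptions.

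**Figure D1:**
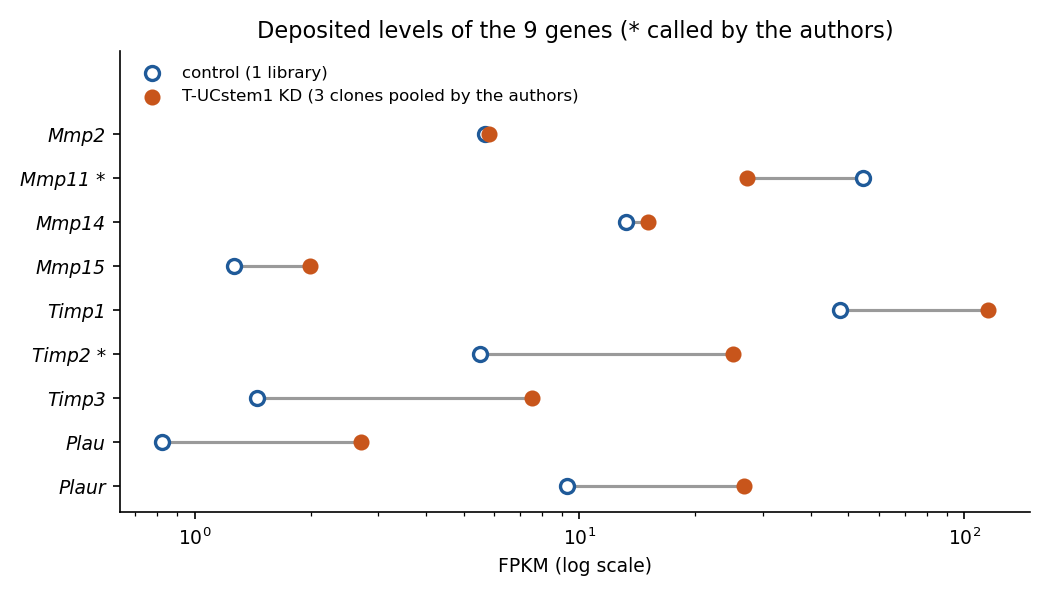
Deposited FPKM (log axis) of each gene in the control library (open circles) and in the KD (filled circles), with no error bars because each condition has 1 value. Timp1, Timp2, Timp3, Plau and Plaur lie further right in the KD, Mmp11 lies further left, and the circles of Mmp2 nearly coincide.

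Timp2 and Timp3 had the highest log2 folds of the 9 genes. Timp2, which lies on chromosome 11 (118162374 to 118216725, mm9), was at 5.51 FPKM in control and 25.1 in KD cells. Its log2 fold was 2.00 (q = 0.00815 in the authors' deposited table). Among 13455 tested rows with at least 1 FPKM in either condition, 93 had a fold at least this high. The Timp2 level moved from percentile 36.6 of these rows in the control to percentile 74.4 in the KD. Its locus also holds BC100451, which was not tested and was at 0.139 FPKM in the KD and at 0 in the control.

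Timp3, whose product stays bound to the matrix and also inhibits sheddases of the ADAM family, was at 1.45 FPKM in control and 7.52 in KD cells. The ratio of 5.18 was the largest of the 9 genes, and the log2 fold was 1.80 (0.96 with a pseudocount of 5). The gene was not called (q = 0.136 in the authors' deposited table). Timp1, the secreted inhibitor and the most abundant member in the KD, was at 47.6 FPKM in control and 116 in KD cells. Its log2 fold was 1.26 and it was not called (q = 0.680 in the authors' deposited table). Timp4, the remaining gene of the family, was not tested and was at 0.0606 FPKM in control and 0.245 in KD cells.

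Timp1 and Timp3 lie inside the synapsin genes Syn1 and Syn3 in the RefSeq annotation, an arrangement also seen for Timp4 in Syn2. The deposited loci are therefore shared: chromosome X, 20425492 to 20498253, holds Timp1, Syn1 and the kinase gene Araf, and chromosome 10, 85484611 to 85961641, holds Timp3, Syn3 and Fbxo7. The neighbours were not higher in the KD. Syn1 was at 2.69 and 2.66 FPKM, and Araf was at 44.5 and 40.1 FPKM. Syn3 was at 1.87 and 0.975 FPKM and Fbxo7 at 14.8 and 10.4 FPKM, and none of these was called. Each TIMP gene and its host thus had separate values. Use of strand in counting is not stated in the labels or the table. Whether reads of a host gene entered the value of its TIMP gene cannot be checked here.

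Mmp11 encodes stromelysin-3, which is activated inside the cell by furin before secretion. It was the most abundant MMP gene in both conditions, at 54.4 FPKM in control and 27.2 in KD cells (chromosome 10, 75385923 to 75395239, mm9). Its log2 fold was -0.97 (q = 0.0276 in the authors' deposited table). Of the 29 rows called lower, 21 changed at least as much, Mmp11 included. Expressed genes on chromosome 10 were lower in general, with a median log2 fold of -0.19 over 655 tested rows. Measured from that median, the fold of Mmp11 was -0.78 and that of Timp3, on the same chromosome, was 1.99. The part of the chromosome in the lower Mmp11 level was not tested. Chromosome 10 was not alone in having a median away from 0. It was 0.26 on chromosome 6, and 0.105 on chromosome X, which holds Timp1. Measured from the median of chromosome X, the fold of Timp1 was 1.16.

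The other MMP members differed little in FPKM. Mmp14, the membrane-anchored collagenase MT1-MMP, was at 13.2 FPKM in control and 15.0 in KD cells (chromosome 14, 55049139 to 55061089). Mmp2 was at 5.69 and 5.80 FPKM, a log2 fold of 0.025 (chromosome 8, 95351226 to 95377319). Mmp15, which encodes MT2-MMP, was at 1.27 and 1.99 FPKM, a log2 fold of 0.40, or 0.61 and 0.16 with pseudocounts of 0.1 and 5 (chromosome 8, 97876164 to 97898942). None of the 3 was called, with q values of 0.999, 0.999 and 0.985 in the authors' deposited table. Without replicate values no interval can be set around these differences, so equal levels are not shown.

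**Figure D2:**
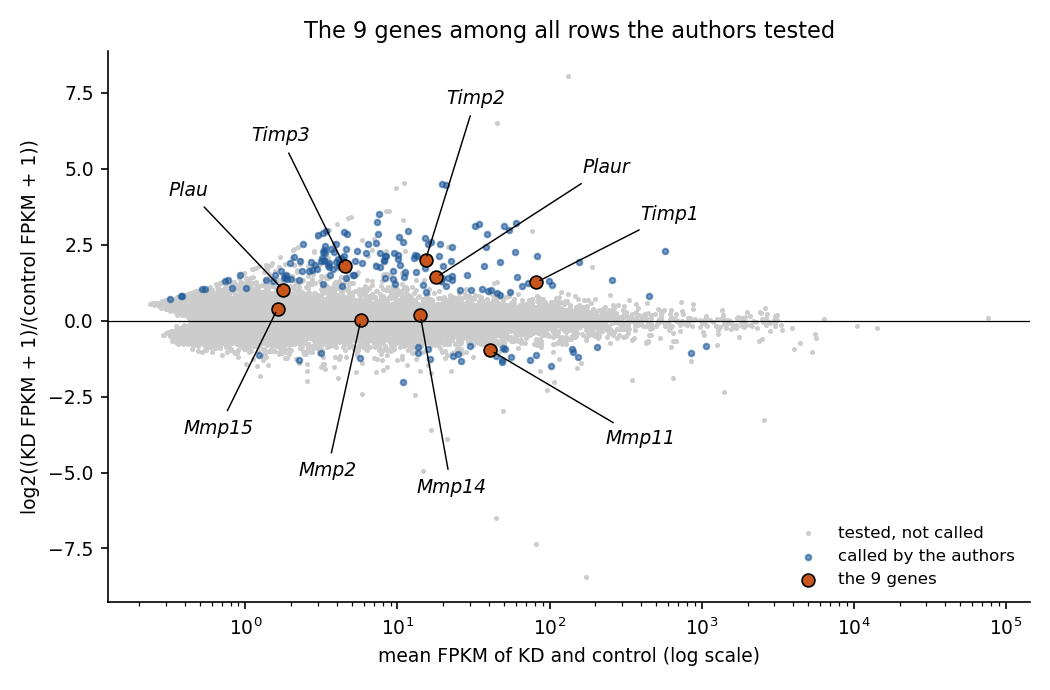
Log2 fold of KD over control (pseudocount 1) against mean FPKM (log axis) for every row the authors tested, with called rows in blue and the 9 genes in orange. Timp2, Timp3, Plaur, Timp1 and Plau lie toward the top of the cloud, Mmp11 lies toward its bottom, and Mmp2, Mmp14 and Mmp15 lie between them.

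Both genes of the urokinase pair were higher in the KD and neither was called. Plaur, the membrane receptor, was at 9.30 FPKM in control and 26.7 in KD cells, on chromosome 7 (25246918 to 25260987). Its log2 fold was 1.43 and its q was 0.0580 in the authors' deposited table and thus above the threshold. At a q of at most 0.1 it would join Timp2 as a second member called higher, and 1.40% of all tested rows were higher at that q. Plau, the protease, was the least abundant member in the control, at 0.820 FPKM, and was at 2.71 FPKM in the KD (chromosome 14, 21655883 to 21662610). Its ratio was 3.30 and its log2 fold 1.03, with q = 0.289 in the authors' deposited table. Its log2 fold was 1.61 with a pseudocount of 0.1 and 0.41 with one of 5. The receptor mRNA exceeded the protease mRNA 11.3-fold in the control and 9.87-fold in the KD.

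The balance of inhibitor to protease mRNA also differed. The 23 MMP genes together had 82.4 FPKM in control and 68.8 in KD cells, and the 4 TIMP genes had 54.7 and 148 FPKM. TIMP over MMP FPKM was thus 0.664 in the control and 2.16 in the KD. Mmp11 alone made up 66.1% of the MMP FPKM in the control and 39.6% in the KD. Timp1, which was not called and shares its locus with other tested genes, made up 87.2% and 77.9% of the TIMP FPKM. Without Mmp11 the ratio was 1.96 and 3.58, and without Timp1 it was 0.0853 and 0.477. The ratio was higher in the KD in each of these 3 forms. These sums describe mRNA and carry no test, and protein amounts or activity were not measured.

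**Figure D3:**
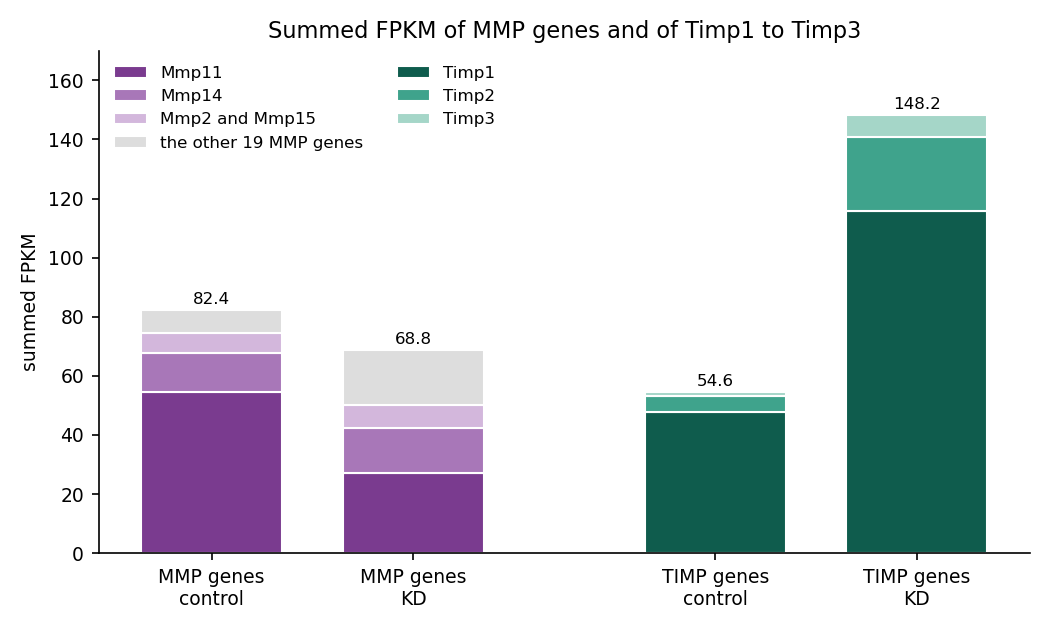
Summed FPKM of the MMP genes (left bars) and of Timp1, Timp2 and Timp3 (right bars) in the control and the KD, divided by gene. The MMP bar shrinks from 82.4 to 68.8 FPKM as its Mmp11 part becomes smaller, and the TIMP bar grows from 54.6 to 148 FPKM.

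Sequences upstream of 4 of the genes are shown so that the called pair, Timp2 and Mmp11, can be read beside Timp1, the most abundant inhibitor gene in the KD, and Plaur. Each is the 250 bases before the RefSeq start, 5′ to 3′ on the gene's strand, from the GRCm38.p6 assembly, which differs from the build of the expression table. Capitals mark the GC box letters GGGCGG on either strand and, in Plaur, the AP-1 letters TGANTCA. The windows lie at chr11:118355412-118355661 on the minus strand for Timp2, chr10:75932503-75932752 on the minus strand for Mmp11, chrX:20869916-20870165 on the plus strand for Timp1 and chr7:24462233-24462482 on the plus strand for Plaur.
Timp2: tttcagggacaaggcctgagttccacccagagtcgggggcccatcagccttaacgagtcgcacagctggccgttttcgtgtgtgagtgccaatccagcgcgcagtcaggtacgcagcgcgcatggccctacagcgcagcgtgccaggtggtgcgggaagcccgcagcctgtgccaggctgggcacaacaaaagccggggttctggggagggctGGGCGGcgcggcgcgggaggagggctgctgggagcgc
Mmp11: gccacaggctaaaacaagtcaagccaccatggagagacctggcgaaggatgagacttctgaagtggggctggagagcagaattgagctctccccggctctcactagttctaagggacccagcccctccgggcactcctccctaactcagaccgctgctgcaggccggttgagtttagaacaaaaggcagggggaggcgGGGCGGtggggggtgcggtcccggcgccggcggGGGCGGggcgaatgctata
Timp1: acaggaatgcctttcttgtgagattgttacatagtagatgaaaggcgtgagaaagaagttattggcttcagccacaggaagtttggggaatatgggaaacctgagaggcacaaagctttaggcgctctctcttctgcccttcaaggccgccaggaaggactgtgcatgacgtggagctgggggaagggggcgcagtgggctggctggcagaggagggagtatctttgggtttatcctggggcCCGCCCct
Plaur: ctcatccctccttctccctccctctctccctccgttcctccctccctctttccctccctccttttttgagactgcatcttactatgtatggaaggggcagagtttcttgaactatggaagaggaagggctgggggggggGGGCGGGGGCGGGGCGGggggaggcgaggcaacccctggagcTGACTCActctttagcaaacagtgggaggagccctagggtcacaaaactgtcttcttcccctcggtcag

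Windows were given for 7 of the 9 genes, all but Mmp2 and Plau. Each of the 7 held at least 1 GC box match, a sequence bound by Sp1-type factors, against 32.7% of 32851 windows of that length. The share of G and C bases was 54.4% to 68% in the 7 windows, and its median over all windows was 52.4%. The part of this base composition in the matches was not tested. The match in Timp2 spans bases 37 to 32 before the start, and 2 matches in Mmp11 span bases 52 to 47 and 19 to 14. Plaur had 3 matches between bases 111 and 95, of which the last 2 share 1 base. Timp2 and Mmp11, which moved in opposite directions, thus share the motif. The AP-1 letters, a site bound by Jun and Fos proteins, were in Plaur at bases 69 to 63 before the start, and in 6.75% of all windows. The ETS letters CCGGAAG and the TATA box letters TATAAA were in none of the 7, against 6.91% and 12.4% of all windows. A match of letters describes the sequence and shows no binding.

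The other genes of these systems were followed in 7 lists of 119 genes, of which 78 were tested. Of these 11 rose, none fell and 67 were not called, so that 14.1% were called higher beside the 0.963% of all tested rows. Their median log2 fold was 0.42. The lists overlap in subject with results of these data already known, so the counts are descriptions.

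The plasminogen list, which also holds the coagulation genes F3 and Tfpi, had the most calls. Of its 12 tested genes 5 were higher and 7 were not called, with a median log2 fold of 1.06. Serpinb2, which encodes the urokinase inhibitor PAI-2, rose from 3.02 to 17.2 FPKM. Serpine2, the protease nexin that also inhibits urokinase, rose from 6.43 to 23.8 FPKM. Plau, Plaur and both of these inhibitor mRNAs were thus higher in the KD, and of the 4 the inhibitors were the ones called. Anxa2, a cell-surface partner of plasminogen, rose from 18.9 to 75.1 FPKM, while S100a10, which binds ANXA2 in that complex, was at 60.3 and 85.8 FPKM and was not called. F3, the coagulation starter tissue factor, rose from 4.01 to 27.7 FPKM, and its inhibitor gene Tfpi was at 38.3 and 52.2 FPKM, not called. Eno1, a glycolytic enzyme that can bind plasminogen, was at 632 and 579 FPKM and was not called. Plat, the tissue-type activator, was at 0.865 and 4.72 FPKM (q = 0.0505 in the authors' deposited table). Plg, plasminogen itself, was not tested, at 0.0102 FPKM in control and 0.0062 in KD cells.

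Among the other 19 MMP genes 1 of 8 tested was called. Of these 8, 7 had the higher FPKM in the KD and 1 the lower, with a median log2 fold of 0.50. Mmp13, a collagenase, rose from 1.02 to 7.87 FPKM, with a log2 fold of 2.14. Mmp17, Mmp28 and the gelatinase gene Mmp9 were not called, at 2.01, 1.21 and 1.42 FPKM in the control and 2.48, 1.98 and 1.37 FPKM in the KD. Of the other inhibitors, activators and partners 1 of 8 tested was called, with a median log2 fold of -0.016. It was Cd44, a hyaluronan receptor that can dock MMPs, at 1.40 FPKM in control and 7.59 in KD cells. Bsg, the MMP inducer basigin, was at 165 and 163 FPKM. Pcsk6, a furin-like convertase, was at 27.4 and 18.7 FPKM, and A2m, the broad protease trap alpha-2-macroglobulin, at 10.9 and 5.60 FPKM, neither of them called. Reck, a membrane-anchored MMP inhibitor, was at 4.10 and 3.83 FPKM and was not called, unlike Timp2.

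The pericellular serine protease list and the ADAM list had 1 call each, beside 0.963% of all tested rows called higher. Of 11 tested pericellular serine proteases and inhibitors Htra1, a secreted protease, rose from 11.4 to 31.6 FPKM and 10 were not called. All 11 had the higher FPKM in the KD, beside 50.9% of all tested rows, and their median log2 fold was 0.36. Spint2, Serpinb6a and Spint1, all inhibitors, were at 112, 27.1 and 20.2 FPKM in the control and 119, 41.3 and 22.9 FPKM in the KD. The list of ADAM and ADAMTS proteases also holds related proteases and genes of collagen processing. Of its 18 tested genes Adamts9, which cuts proteoglycans, rose from 2.18 to 7.996 FPKM and 17 were not called. Of the 18, 11 had the higher FPKM in the KD and 7 the lower, with a median log2 fold of 0.18. Adam9 was at 11.7 and 14.2 FPKM and Adam23 at 38.3 and 18.0 FPKM, with a q of 0.0636 for Adam23 in the authors' deposited table. Pcolce, an enhancer of collagen processing whose row also holds Fbxo24, was at 53.3 and 40.2 FPKM.

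Cysteine proteases of the lysosome, some of which are also secreted, and their inhibitors gave 2 calls among 9 tested genes and a median log2 fold of 0.93. Ctsl, cathepsin L, rose from 147 to 371 FPKM and Lgmn, legumain, from 37.2 to 73.1 FPKM. Their inhibitor genes Cst3 and Cstb were at 43.7 and 90.9 FPKM in the control and 80.6 and 93.5 FPKM in the KD, and the protease gene Ctsz was at 37.2 and 71.9 FPKM, none of them called. The AP-1 and ETS factor genes, whose products bind many protease promoters, had no call among 12 tested genes in the authors' Cuffdiff results, although 6 had a p under 0.05 without adjustment. Their median log2 fold was -0.084. Etv5, Etv4 and Elf3 were at 147, 70.8 and 46.9 FPKM in the control and 125, 43.7 and 30.4 FPKM in the KD. Of the 12, 5 had the higher FPKM in the KD and 7 the lower. Among the 6 with a p under 0.05, Jun was at 1.97 and 6.29 FPKM, Ets1 at 0.610 and 2.91 FPKM (q = 0.0524 in the authors' deposited table) and Fosl2 at 0.422 and 1.61 FPKM, while Fos was at 1.85 and 0.706 FPKM.

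**Figure D4:**
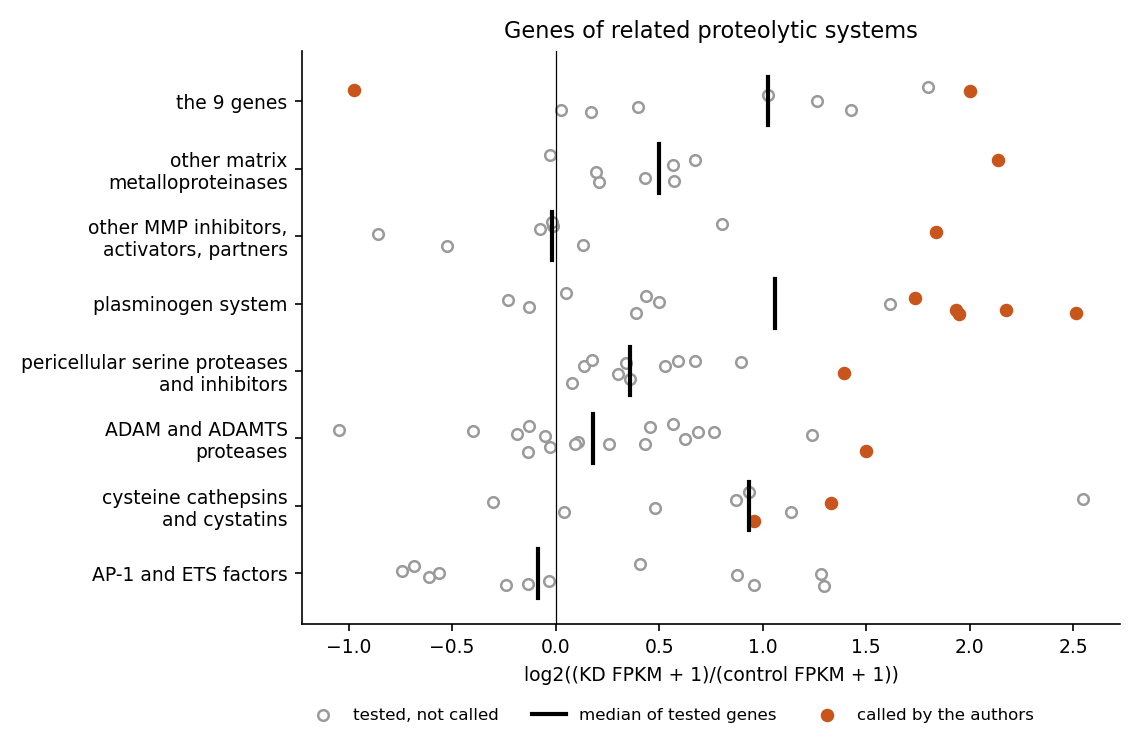
Log2 fold of KD over control (pseudocount 1) of each tested gene, 1 circle per gene, for the 9 genes and the 7 related lists, with medians as black bars and genes called by the authors filled. Filled circles lie right of 0 in each of the related lists that has one, and Mmp11 is the filled circle left of 0.

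Markers of cell types that the dish could hold were measured beside these genes. For the marker counts here and below, 0.963% of all tested rows were called higher and 0.187% lower. The FPKM was higher in the KD in 50.9% of all tested rows. At a Cuffdiff p under 0.05 without adjustment, 6.10% of all tested rows were higher and 2.78% were lower. All 9 ES cell markers were abundant in both conditions, from 115 FPKM upward in the control, with none called and none at a p under 0.05. The most abundant were Dppa5a (a row shared with Ooep), Pou5f1 and Tdgf1, the last at 706 and 686 FPKM. Parietal endoderm markers were higher in the KD. Their summed FPKM was 226 in the control and 938 in the KD, 13 of 15 were called higher, and each was above 0.5 FPKM in the control. Sparc and Col4a1 were among the called and Lamc1 was not, at 93.1 and 172 FPKM. Plat belongs to this list and to the plasminogen list.

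Fibroblast markers summed to 15.7 FPKM in control and 35.1 in KD cells, with 1 of 11 tested genes, Pdgfra, called higher and Lum listed at 0 in both. The single genes ranged up to 5.08 FPKM in control and 7.06 in KD cells, and 10 of the 11 had the higher FPKM in the KD, 7 of the 11 at a p under 0.05 without adjustment. Col1a1 was at 0.920 and 3.63 FPKM and Col1a2 at 1.12 and 4.03 FPKM (q = 0.0505 for Col1a2 in the authors' deposited table), and these, Thy1 and Pdgfrb were not called. Visceral endoderm markers summed to 5.36 and 35.7 FPKM with 1 of 6 tested called, Cubn. Of these 6, 5 had the higher FPKM in the KD and 4 had a p under 0.05 without adjustment. Amn was at 0.601 and 7.09 FPKM (q = 0.0757 in the authors' deposited table), Foxa2 at 0.140 and 2.63 FPKM and Hnf4a at 1.65 and 1.27 FPKM, none of them called, and Afp and Ttr were listed at 0 in the control. Trophoblast markers summed to 30.7 and 51.6 FPKM with 2 of 5 called, Krt8 and Krt18, while Tfap2c was at 21.2 and 16.5 FPKM and Cdx2 was listed at 0 in the control. Endothelial markers summed to 36.1 and 41.2 FPKM, of which Pecam1 at 33.9 and 35.9 FPKM made up most. None of the 4 tested was called. All 4 had the higher FPKM in the KD, and 2, Tek and Cdh5, had a p under 0.05 without adjustment. Cdh5 was at 0.168 and 0.944 FPKM, and Tek and Esam were below 2.4 FPKM. Macrophage markers with a row of their own summed to 3.59 and 3.52 FPKM, led by Itgam, with Cd14 below 0.5 FPKM, and Cd68 shared its row with Eif4a1 and other genes. The part of any of these cell types in the protease and inhibitor levels was not tested. In such bulk RNA, more cells of a type and more RNA per cell cannot be told apart.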

How the data were processed

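The submitters' processing notes name TopHat, Cufflinks, Cuffdiff and the build mm9 for the libraries of 1 control and 3 KD clones. Their versions, annotation and scaling are not given in the sources used. The authors deposited 1 FPKM per gene and condition, per the file headers; treated was taken as the KD, the other condition in the labels. The deposited p-values and q-values are Cuffdiff's, and the authors' mark equalled a q of at most 0.05 in all 15477 tested rows. With 1 control library they hold no spread between control cultures. Locus coordinates are printed as deposited.

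Per symbol the tested or untested row with the highest mean FPKM was kept. Log2 folds were recomputed with a pseudocount of 1, which understates changes of low genes. No new test was run, because each condition has 1 value. Computation used Python 3.11.15, numpy 2.4.6 and pandas 2.3.3, and the counting code was tested on simulated data.

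Reads per library are not stated. In 168 genes with 1 GENCODE transcript of at least 1500 bp and a low control value, FPKM times length in kb was most often 0.032 to 0.036 (31 genes). If 0.034 is the worth of 1 fragment, the members had between 57 (Plau) and 3664 (Mmp11) control fragments, and 3 fragments of Plau would be 0.0436 FPKM. This covers counting error only, and the pooled KD gave no depth per clone.

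Promoter windows came from RefSeq (GRCm38.p6), and 6 of 7 matched a GENCODE transcript just after the start.

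Members and lists were chosen with earlier results of these data known. Named from each list were all called genes and the 3 most abundant uncalled ones (3 per marker list). Of the called genes 1 is not reported here. Timp4, Plat, Plg, Reck, Lum, Afp, Ttr, Cdx2, Ctsh, Jun, Ets1, Fosl2, Fos, Col1a1, Col1a2 and Foxa2 were named after their values were seen. So were Cdh5, Elf5, Hand1, Gata3, Prl3d1, the genes sharing a locus with Timp1 or Timp3 and those of the chromosome 9 MMP cluster. Alternatives were the pseudocount, centring, an FPKM minimum, summed rows, the q threshold and leaving out members.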

Additional observations from a re-analysis of the deposited data

How the results depend on the processing

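With a q of at most 0.1, 2 members were higher in the KD instead of 1, Timp2 and Plaur. The median log2 fold of 1.03 was 1.28 with a pseudocount of 0.1 and 0.41 with one of 5. With only the 7 members that share no locus with another tested gene, a setting chosen after seeing the data, it was 0.40; Timp2, whose locus holds the untested BC100451, is among them. Leaving out 1 gene gave 1.14 (any of the 4 MMP genes), 0.83 (Plau) or 0.71 (any of the TIMP genes or Plaur). The number of members higher in the KD was 8 with centring, and 6 of those 7 members. An FPKM minimum and summed rows also gave 8 but could not change it. Each of the 9 members has 1 row, with at least 1 FPKM in at least 1 condition. All 45 alternative folds of single members kept their sign, but only centring could have reversed one. A pseudocount cannot reverse a sign, and each member has 1 row, so that summing rows changed nothing. The cause of these shifts was not tested, except that the pseudocount acts by construction on low values. No paired analysis was possible because each condition has 1 deposited value; for the same reason no clone could be left out.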

Other observations

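Mmp13 lies at 1 end of a cluster of 10 MMP genes on chromosome 9 (7272513 to 7699416, mm9). The neighbours were low: Mmp3 was at 0.0516 FPKM in control and 0.559 in KD cells, and Mmp10 at 0.274 and 1.03 FPKM, neither of them called. The other 7, Mmp12, Mmp1b, Mmp1a, Mmp8, Mmp27, Mmp20 and Mmp7, were not tested, were listed at 0 in the control and reached at most 0.0788 FPKM in the KD. Mmp13 was thus the 1 gene of the cluster above 1 FPKM in the control.

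Timp1 had the largest difference of the 9 genes in FPKM, 68.0, and a p of 0.0773 in the authors' deposited table. Another 7 tested rows had both a fold and a mean FPKM at least as high, of which 5 were called and 2 had a larger p. For Plaur there were 28 such rows, of which 23 were called. Ctsh, cathepsin H, had the largest fold of the cathepsin list without a call, at 0.408 FPKM in control and 7.22 in KD cells.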
